A study of Mus musculus with 4 samples.

Results

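The sodium and calcium pumps of the mouse lens were examined at the level of their mRNA in lenses with a conditional deletion of Celf1, an RNA-binding protein that controls the splicing, stability and translation of other transcripts. The genes are Atp1b1, Atp1b2 and Atp1b3 (beta subunits of the Na,K-ATPase), Atp2a2 and Atp2a3 (calcium pumps of the endoplasmic reticulum, SERCA), and Atp2b1, Atp2b2 and Atp2b4 (calcium pumps of the plasma membrane, PMCA). They were chosen by name, by taking every probe of the array whose symbol in the files is one of these 8, which gave 17 of 45263 probes and 8 of 28850 genes. The lenses came from mice of mixed C57BL/6 and FVB background at postnatal day 6, and total RNA of 1 lens was hybridised to each of 4 Illumina MouseWG-6 v2.0 BeadChips, with 2 lenses (replicates A and B) in each group. Celf1 cKO mice carry 1 Celf1 lacZ knock-in allele beside a conditional allele, whose exon 5 is removed by Cre from the Pax6GFPCre transgene, a driver active from the lens placode stage in the lens and also in the pancreas. Control mice (Celf1lacZKI/+) pair the same lacZ knock-in with a wild-type copy, so that both groups have the knock-in in common, and the labels do not say whether Controls carry Cre. The comparison asks which pump transcripts differ when the remaining functional Celf1 allele is deleted in the lens.

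The lens has no blood supply and its fiber cells lose their organelles as they mature, so ion balance depends largely on transport proteins of the outer cells. The Na,K-ATPase moves sodium out and potassium in, and its beta subunit is needed for the catalytic alpha subunit to fold and to reach the plasma membrane. SERCA pumps refill the calcium store of the endoplasmic reticulum, while PMCA pumps, which calmodulin activates, and sodium-calcium exchangers remove calcium from the cell. Raised calcium in the lens activates calpain proteases and is a known route to cataract.

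The probes behind the measured values are shown here so that it is clear which stretch of each transcript was read. Every probe is 50 bases long and its first 30 bases are given 5′ to 3′ as the files list them, with no base marked. The Atp2a2 probes begin at base 3700 and base 3877 of the transcript in the files (NM_009722.2) and read different stretches of it, which the files place on the minus strand of chromosome 5, at chr5:122903757-122903806 and chr5:122903580-122903629. The Atp1b1 probe begins at base 2077, the Atp1b3 probe at base 1598, the Atp2b1 probe at base 3571 and the Atp2b4 probe at base 3466 of the transcript. The Atp2b4 probe lies on the minus strand of chromosome 1 at chr1:135603370-135603419. The files name no genome build, and exon or untranslated region is not given for these positions. No other probe of the array has the same sequence as any of them, and between 44% and 56% of their bases are G or C.
Atp1b1: gtgatgggttgtgttgtgctccgtgctgaa
Atp1b3: gggctgactttgagtgttggaatcaagtct
Atp2a2, base 3700: ggcctccagtcctaacttcagttgtttagg
Atp2a2, base 3877: gcgcatgtttgactgtagtctgtaaataga
Atp2b1: tggggaccttactctggggccagcttattt
Atp2b4: ttggtttctaaggcggggacgagtgtgctc

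The arrays differed in brightness along with genotype, and values under several ways of scaling are given where they differ. Between 16261 and 16925 probes were detected on the cKO arrays and between 14180 and 14542 on the Control arrays, at a detection p-value under 0.05 (the rank of a probe among negative control beads). Celf1 itself was at 7.45 and 6.95 in the cKO lenses and 8.71 and 8.55 in the Control lenses on the normalized log2 scale, a difference of -1.43 ± 0.19 (SE, limma, adjusted p = 0.00978). The cKO lenses thus kept 37.0% of the Control signal. Which exon its probes lie in is not given, so they check the transcript and not the deletion. Xist, which is made from the inactive X chromosome, was at least 6.09-fold higher in the cKO lenses (limma, adjusted p = 0.00089) and not above background in the Control lenses, and Ddx3y, a gene of the Y chromosome, differed by -3.09 ± 0.55 (limma, adjusted p = 0.0195). The Ddx3y signal was unlike in the cKO lenses, at 6.81 in cKO A and 4.82 in cKO B on the log2 scale, and lay at 8.99 and 8.82 in the Control lenses. Sex and genotype cannot be told apart in these 4 lenses. As a check of the tissue, all 9 fiber cell markers and 4 of 5 epithelial markers of the lens were above background. The fiber markers Bfsp2 (-0.76, limma, adjusted p = 0.0227) and Dnase2b (-1.60, limma, adjusted p = 0.00842) were called reduced, and the summed signal of all 9 was 178859 and 171386 in the cKO lenses and 197865 and 191589 in the Control lenses. The epithelial markers Foxe3 and Pdpn were called reduced too, and the summed signal of the 4 tested epithelial markers was 1401 and 1506 in the cKO lenses and 2197 and 1919 in the Control lenses. The part of these cell types in the pump values was not tested. Nothing in the labels says whether the 2 lenses of a group came from different litters, so p-values refer to the spread between these lenses. In limma the variance of each gene is drawn towards that of all genes tested, so this spread is partly pooled over genes.

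Of the 8 pump genes, 5 had a probe above background in at least 2 lenses and could be tested, which were Atp1b1, Atp1b3, Atp2a2, Atp2b1 and Atp2b4. Atp1b2, Atp2a3 and Atp2b2 did not pass. By probe, 6 of 17 passed (35.3%), against 35.9% of all probes. The 6 were 2 probes for Atp2a2 and 1 for each of the other 4 genes.

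**Figure D1:**
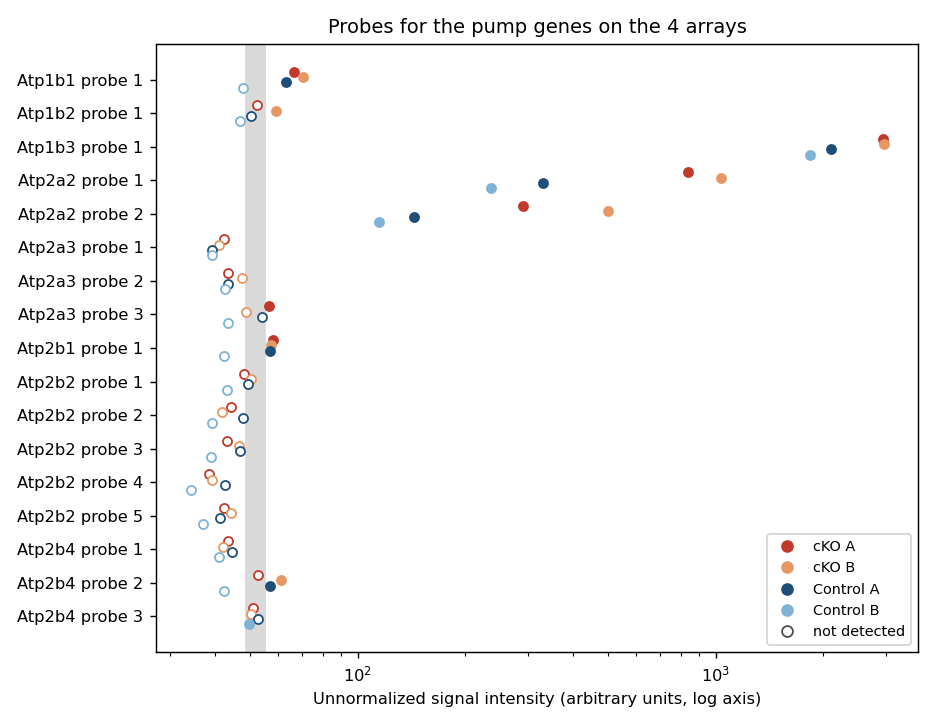
Unnormalized signal intensity of all 17 probes for the pump genes (horizontal log axis, arbitrary units) in the 4 lenses, with filled points where the probe was detected and open points where it was not. The grey band spans the lowest intensity called detected on each array, 48.9 to 55, and only the Atp1b3 probe and both Atp2a2 probes lie above it in all 4 lenses.

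A gene was called elevated or reduced at an adjusted p under 0.05 (limma with Benjamini-Hochberg adjustment over 11516 genes), an absolute log2 difference over 0.58 and a mean log2 signal over 4.6. One SERCA gene, Atp2a2, was called elevated in the cKO lenses, and 0 pump genes were called reduced. This is 1 of the 5 tested pump genes called in either direction (20%), where 11.6% of all genes tested were called, 6.01% as elevated and 5.64% as reduced. With so few members the share cannot be set apart from that background. The cKO and Control values did not overlap for 2 of the 5, Atp2a2 and Atp1b3, and such a gap was found for 62.3% of all genes tested. The median difference was 0.11 over the 5 genes and 0.01 over all genes.

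Atp2a2 encodes SERCA2, the calcium pump of the endoplasmic reticulum that most cell types use and that heart muscle has in quantity. Its normalized log2 signal, averaged over both probes, was 8.47 in cKO A, 8.94 in cKO B, 7.77 in Control A and 7.68 in Control B. Both cKO lenses lay above both Control lenses, and the cKO lenses lay farther apart from each other than the Control lenses did. The group means were 8.71 ± 0.33 (SD, n = 2) and 7.72 ± 0.06 (SD, n = 2), and the difference of 0.98 ± 0.18 (SE) corresponds to 1.98-fold higher signal (limma, adjusted p = 0.0223, 95% interval 0.54 to 1.42 on the log2 scale).

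The Atp2a2 probes gave nearly the same difference although they differ in brightness. The probe at base 3700 had unnormalized intensities of 835.5 and 1034.8 in the cKO lenses and 329.1 and 235.3 in the Control lenses, and a log2 difference of 0.99 ± 0.16 (limma over probes, adjusted p = 0.0135). The probe at base 3877 had intensities of 290.5 and 500 in the cKO lenses and 143.6 and 114.5 in the Control lenses, and a log2 difference of 0.97 ± 0.24 (limma over probes, adjusted p = 0.0419). Both probes were detected on all 4 arrays. Each value rests on 29 to 48 beads, whose standard error was 2.28% to 5.56% of the signal on the first 3 arrays and 8.06% and 9.41% on Control B. A further probe that current annotation assigns to Atp2a2 under another symbol was not detected on any array and does not enter these values. Which exons these probes read is not given, so the splice forms of Atp2a2 were not told apart.

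The elevation of Atp2a2 kept its direction under all 17 alternatives and with each lens left out, but its call was lost without cKO B or Control B. With cKO B left out the difference was 0.74 (limma, adjusted p = 0.134), and with Control B left out it was 0.94 (limma, adjusted p = 0.0959). It stayed past the threshold when cKO A was dropped, at 1.22 (limma, adjusted p = 0.0206), or Control A, at 1.03 (limma, adjusted p = 0.0468). With no scaling between arrays the difference was 1.82, of which 0.57 was the median shift of all genes in the same direction. Relative to that median, the difference was between 0.70 and 1.25 in every setting. Of the markers of skeletal muscle, 0 of 5 were above background in 2 lenses, and heart markers were not examined. Of 3 macrophage markers tested, Cd68 was called elevated beside Atp2a2, at least 1.26-fold (limma, adjusted p = 0.0376) and not above background in the Control lenses, while Csf1r (-0.11) and Aif1 (-0.06) were not called. The summed signal of the 3 was 92.1 and 90.7 in the cKO lenses and 80.0 and 84.4 in the Control lenses. Of 3 blood markers tested, Slc4a1 was called reduced (-1.03, limma, adjusted p = 0.0114), while the hemoglobin genes Hbb-b1 (0.05) and Hba-a1 (-0.08) were not called. The summed blood signal overlapped between the groups, at 754.7 and 350.4 in the cKO lenses and 630.4 and 522.9 in the Control lenses. Of 5 vessel markers tested 0 were called, with Cdh5 at 0.58, Cldn5 at 0.53, Pecam1 at -0.06, Tek at -0.26 and Kdr at -0.59. The summed signal of the 5 was 443 and 437 in the cKO lenses and 388 and 377 in the Control lenses. Of 2 platelet markers tested, Gp9 was called reduced (-0.63, limma, adjusted p = 0.049), while Itga2b had the opposite sign (0.23) and was not called. The summed signal of the 2 was 61.5 and 56.3 in the cKO lenses and 70.5 and 69.0 in the Control lenses. The part of these cells in the Atp2a2 value was not tested. In whole lenses a change in the number of cells that express a gene and a change in the RNA of each cell cannot be told apart.

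**Figure D2:**
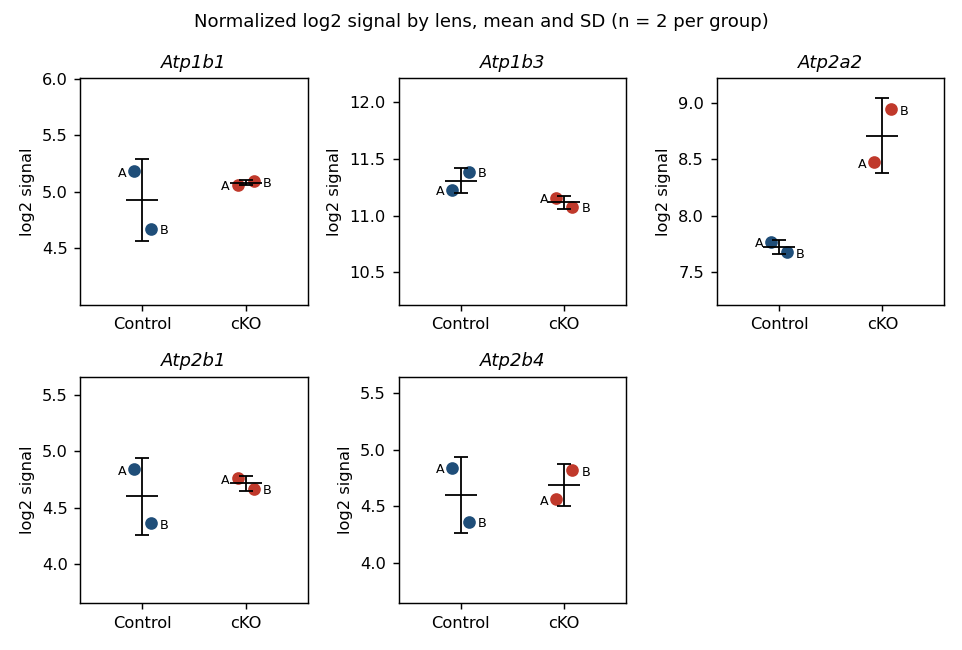
Normalized log2 signal of the 5 tested pump genes in each lens (points, replicates A and B) with the mean and SD of each group (bars, n = 2), every panel spanning the same range of log2 units. The cKO points lie above the Control points for Atp2a2 and below them, by a smaller gap, for Atp1b3, whose sign turns when arrays are not scaled or are scaled to one median. The groups overlap for Atp1b1, Atp2b1 and Atp2b4.

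The other SERCA gene in the set, Atp2a3, encodes SERCA3, a form found in blood, endothelial and some epithelial cells. Its 3 probes on the plus strand of chromosome 11 lay at 39.1 to 56.7 in intensity. Only the probe at base 4431 of its transcript was detected at all, at 56.7 in cKO A (a detection p-value of 0.0235), and the other lenses gave 48.7, 54.1 and 43.4. Atp2a3 was therefore not detectable in 2 lenses at this sensitivity, and no difference is given for it.

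Among the beta subunits of the Na,K-ATPase, Atp1b3 was the only one above background in all 4 lenses. It encodes beta 3, a subunit of many non-muscle tissues. The log2 values were 11.16 in cKO A, 11.08 in cKO B, 11.23 in Control A and 11.39 in Control B. The Control values lay just above the cKO values, and the difference of -0.19 ± 0.14 did not pass the test (limma, adjusted p = 0.391, 95% interval -0.53 to 0.14).

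The direction of Atp1b3 depended on how the arrays were brought to one scale. Before normalization its intensity was higher in the cKO lenses, at 2928.3 and 2951.1, than in the Control lenses, at 2104 and 1834.1. With no scaling between arrays the log2 difference was 0.59 (adjusted p = 0.0232), and with arrays scaled to the same median it was 0.55 (adjusted p = 0.0302), where all genes shifted by a median of 0.57 and 0.53. Relative to the median of all genes, the difference lay between -0.31 and 0.02 over all settings with 4 lenses and with 3.

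Atp1b1 encodes beta 1, the most widespread beta subunit, which also acts in adhesion between epithelial cells. Its unnormalized intensity was 66.5 in cKO A, 70.2 in cKO B, 63.2 in Control A and 47.8 in Control B, and it was detected in all lenses but Control B (a detection p-value of 0.0727). On the log2 scale the values were 5.06 and 5.09 in the cKO lenses and 5.18 and 4.67 in the Control lenses. Control A was the highest of the 4 and Control B the lowest. The difference of 0.15 ± 0.19 did not pass the test (limma, adjusted p = 0.617, 95% interval -0.30 to 0.61), and it turned to -0.11 without Control B, to -0.27 when arrays were scaled to the median of probes detected on all of them, and to -0.39 on the deposited normalized values with 16 added.

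Atp1b2 encodes beta 2, known as an adhesion molecule of glia. Its intensity was 52.5 in cKO A, 59.1 in cKO B, 50.5 in Control A and 47 in Control B. It was detected only in cKO B (a detection p-value of 0.0139) and was not tested. Of the glia markers examined, 3 of 4 were above background in at least 2 lenses, with Gfap called reduced (-0.81) and 0 called elevated. Slc1a3 was not called, at 4.61 in cKO A, 5.94 in cKO B and 4.38 and 4.45, not above background, in the Control lenses on the log2 scale. Aqp4 differed by 0.32 and was not called either. The summed signal of the 3 was 182 in cKO B and 137 to 150 in the other lenses, and its part in the Atp1b2 signal was not tested. Of the markers of retina and neurons, 0 of 8 were above background in 2 lenses.

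The plasma membrane calcium pumps were all near or under the background. Atp2b1 encodes PMCA1, the form that most cells express. Its intensity was 57.9 in cKO A, 57.2 in cKO B, 57.1 in Control A and 42.4 in Control B, with detection in the first 3 and not in Control B (a detection p-value of 0.334). The log2 values were 4.76, 4.67, 4.84 and 4.36 in the same order. As for Atp1b1, the values of the cKO lenses lay between those of the Control lenses. The difference was 0.11 ± 0.19 (limma, adjusted p = 0.709, 95% interval -0.33 to 0.56).

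Atp2b4 encodes PMCA4, a form known from red blood cells and sperm. Its probe at base 3466 read 52.6 in cKO A, 61.2 in cKO B, 57 in Control A and 42.4 in Control B, and was detected in cKO B and Control A. The groups overlapped, with the lowest and the highest log2 value both among the Control lenses (4.36 and 4.84). The difference was 0.09 ± 0.20 (limma, adjusted p = 0.794, 95% interval -0.38 to 0.55). A second probe, which the files mark as specific for an isoform and which begins at base 3553, was detected only in Control B at an intensity of 49.8 (a detection p-value of 0.0363). The remaining probe, at base 3203, was not detected in any lens.

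Atp2b2 encodes PMCA2, the pump of sensory hair cells and neurons. None of its 5 probes was detected in any lens, with intensities between 34.2 and 50.3. The arrays thus give no level for Atp2b2 in the lens at postnatal day 6.

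For the 3 dim genes that could be tested, the low value always came from the same lens, Control B, which also had the fewest probes detected. Without Control B the differences of Atp1b1, Atp2b1 and Atp2b4 were -0.11, -0.14 and -0.17, all of opposite sign to those with 4 lenses. They were also negative when arrays were scaled to the median of probes detected on all of them, at -0.27, -0.49 and -0.52, where Atp2b1 and Atp2b4 had adjusted p-values of 0.0469 and 0.0416 but did not reach the fold threshold, and where the median of all genes moved to -0.19. The 95% intervals of these 3 genes reach from -0.38 to 0.61 on the log2 scale, and changes within those limits were not detectable here.

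The wider set of genes for sodium and calcium transport was read from a list of 75 genes in 10 roles, written with results of these data known. Of these, 73 had a probe, 42 could be tested, and 8 were called (19%, where 11.6% of all genes were called), 6 as elevated and 2 as reduced. The median difference of the 42 was 0.14, and for 71.4% of them the cKO and Control values did not overlap, against 62.3% of all genes. The calls were sensitive to single lenses, with 4 list genes called when cKO A was left out, 1 when cKO B was, 9 when Control A was and 1 when Control B was.

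**Figure D3:**
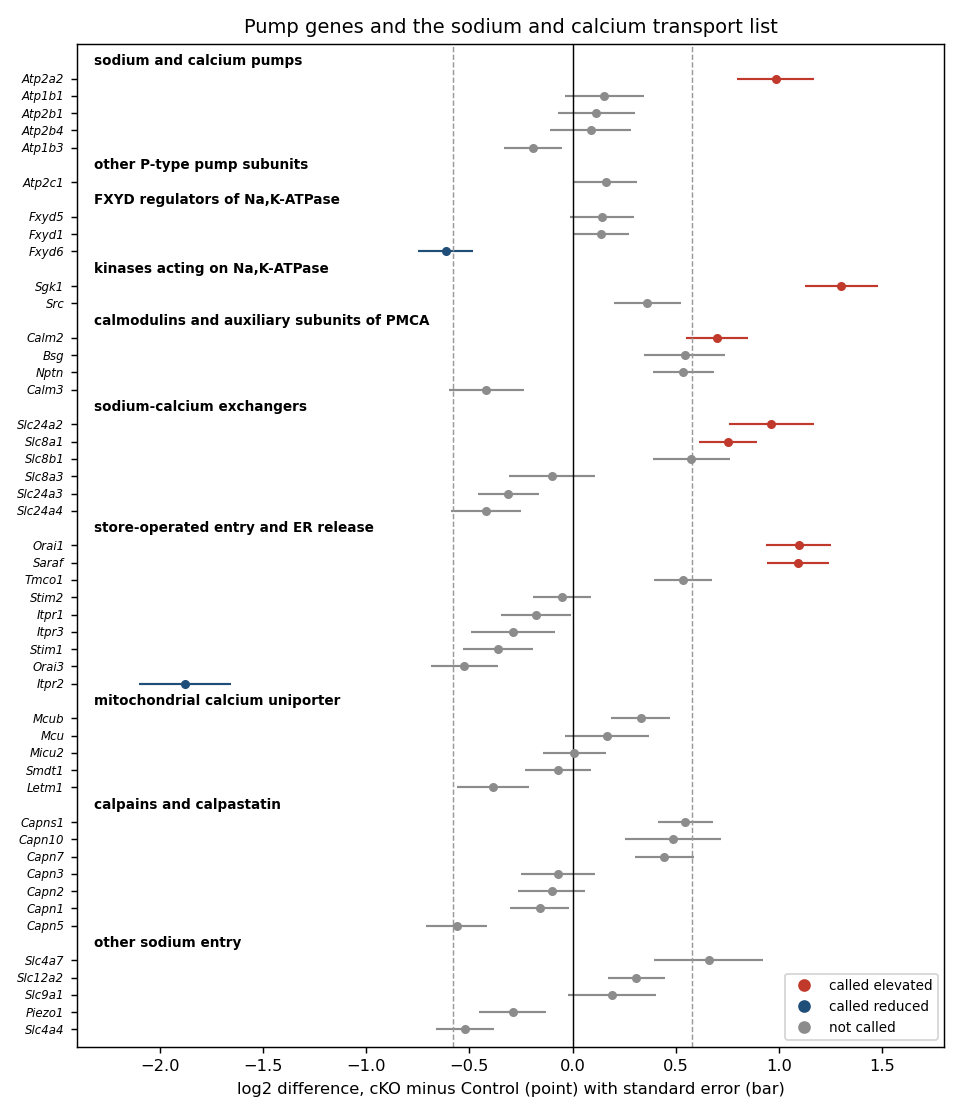
Difference in log2 signal between cKO and Control lenses (points) with its standard error (bars) for the 5 tested pump genes and the 42 tested genes of the transport list, grouped by role, with dashed lines at the fold threshold of 0.58. Of the pump genes only Atp2a2 is coloured as called, at 0.98, while Itpr2 at -1.87 and Sgk1 at 1.30 mark the ends of the list. The reduction of Fxyd6 turns to a small positive value when arrays are not scaled or are scaled to one median.

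Of the 5 regulators of the Na,K-ATPase tested, Fxyd6 was called reduced and Sgk1 elevated. Of the FXYD proteins, small membrane proteins that bind the pump and tune its affinity for ions, 3 of 7 were tested. Fxyd6 stood at 5.81 and 5.90 on the log2 scale in the cKO lenses and 6.47 and 6.48 in the Control lenses, with a difference of -0.62 ± 0.13 (limma, adjusted p = 0.0326) that turned to 0.02 with arrays scaled to the same median and to 0.06 with no scaling. Fxyd1 and Fxyd5 differed by 0.14 and 0.14 and were not called, and each value averages probes of opposite sign (0.63 and -0.35 for Fxyd1, 0.67 and -0.39 for Fxyd5), the positive one detected in the cKO lenses only. The call of Fxyd6 was lost with each of the 4 lenses left out in turn, at adjusted p-values of 0.0554 to 0.175.

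Sgk1, a kinase that raises the activity of sodium transport at the cell surface, was called elevated. Its log2 signal was 7.11 and 7.32 in the cKO lenses and 5.72 and 6.10 in the Control lenses, a difference of 1.30 ± 0.18 (limma, adjusted p = 0.00988) or 2.46-fold. Without cKO B it was 1.17 (adjusted p = 0.0702), and it passed with any other lens left out. Src, the other kinase tested, differed by 0.36 ± 0.16 and was not called.

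On the side of the calcium pumps, none of the small membrane proteins that regulate SERCA could be tested, since probes for phospholamban (Pln), sarcolipin (Sln) and myoregulin (Mrln) were not above background in 2 lenses and Strit1 has no probe assigned. Of the calmodulins and partners of PMCA, 4 of 5 were tested and Calm2, 1 of the genes that encode calmodulin, was called elevated. On the log2 scale it was at 7.12 and 7.14 in the cKO lenses and 6.55 and 6.30 in the Control lenses, a difference of 0.70 ± 0.15 (limma, adjusted p = 0.0306). The Calm2 probes gave 0.90 and 0.49, neither of which passed the test alone (limma over probes, adjusted p = 0.0617 and 0.162). The probe at 0.49 bears another symbol and is assigned to Calm2 by current annotation. Without that assignment Calm2 differed by 0.90 and was not called (limma, adjusted p = 0.0601). The gene's call was lost without cKO A, cKO B or Control B, at adjusted p-values of 0.101 to 0.183. Calm3, which encodes the same protein, differed by -0.42 ± 0.18 and was not called. Neuroplastin (Nptn) and basigin (Bsg), partner proteins of PMCA, differed by 0.53 ± 0.15 and 0.54 ± 0.19 and were not called. The Bsg value averages a probe at 0.86, detected in the cKO lenses only, and a probe at 0.22.

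Of the exchangers that use the sodium gradient to move calcium, 6 of 9 were tested, and 2 were called elevated. Slc24a2 (NCKX2, which also carries potassium) had a log2 signal of 7.11 and 7.03 in the cKO lenses and 6.40 and 5.82 in the Control lenses, a difference of 0.96 ± 0.21 (limma, adjusted p = 0.0313) that passed only without Control A when a lens was left out (otherwise adjusted p = 0.0846 to 0.139). It rests on 1 of 5 probes, and without the detection filter the difference was 0.09 (limma, adjusted p = 0.657). Slc8a1 (NCX1, the main sodium-calcium exchanger of the plasma membrane) had a log2 signal of 6.07 and 5.96 in the cKO lenses and 5.32 and 5.21 in the Control lenses, a difference of 0.75 ± 0.14 (limma, adjusted p = 0.0214). The Slc8a1 probes disagreed, and its call rests on one that passed the detection filter through the cKO lenses alone. The probe at base 18516 of the transcript read 98.7 and 94.8 in the cKO lenses and was not detected in the Control lenses at 41.8 and 41.7, while the probe at base 3105, detected on all arrays, gave a difference of 0.02 ± 0.17. Slc8a1 differed by -0.0025 without cKO A and by 0.05 without cKO B, where the first probe no longer passed the detection filter, and it had an adjusted p of 0.0774 without Control B.

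Genes of calcium release from the endoplasmic reticulum and of the entry that follows it showed the widest range, and 3 of 9 tested were called. Itpr2, the type 2 receptor for inositol trisphosphate, through which calcium leaves the store that SERCA fills, was at 6.21 in cKO A, 5.55 in cKO B, 7.76 in Control A and 7.75 in Control B on the log2 scale. It was called reduced, with a difference of -1.87 ± 0.22 (limma, adjusted p = 0.0067), or 27.3% of the Control signal, and its unnormalized intensity was also lower in the cKO lenses (119.8 and 89) than in the Control lenses (210.5 and 168.3). Its call was lost without Control B (-1.92, limma, adjusted p = 0.056). It rests on 1 of 4 probes, and with all 4 averaged, without the detection filter, the difference was -0.54 (limma, adjusted p = 0.0903). Itpr1 and Itpr3, the other receptors of the family, differed by -0.18 ± 0.17 and -0.29 ± 0.20 and were not called.

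Orai1, the pore of store-operated calcium entry, was called elevated. Its log2 signal was 8.24 and 8.55 in the cKO lenses and 7.31 and 7.29 in the Control lenses, a difference of 1.10 ± 0.16 (limma, adjusted p = 0.0114). Saraf, which slows the same entry, was called elevated too, at 9.34 and 9.57 against 8.42 and 8.30, a difference of 1.09 ± 0.15 (limma, adjusted p = 0.0103). Its 3 probes gave 0.85, 0.67 and 1.75, and each passed the test over probes. Both genes lost their call without cKO B (adjusted p = 0.0817 for Orai1 and 0.0776 for Saraf) and without Control B (0.0615 and 0.0593). Stim1 and Stim2, the sensors of store calcium that open Orai1, differed by -0.36 ± 0.17 and -0.05 ± 0.14 and were not called.

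None of the 7 calpain genes tested was called by limma. Among them Capns1, the small regulatory subunit, had a difference of 0.55 ± 0.13 with an adjusted p of 0.0437 but stayed under the fold threshold, and Capn3, which gives rise to a form specific to the rodent lens, differed by -0.07 ± 0.18 (adjusted p = 0.82). Its probes disagreed, with -0.56 and -0.36 for the probes detected on all arrays and 0.72 for one not detected in Control A, none of them past the test over probes. Of the 7 calpain genes, 3 had an unadjusted p under 0.05, as had 3675 of all 11516 genes. None of the 5 tested genes of other sodium entry was called by limma, and 2 had an unadjusted p under that level.

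**Figure D4:**
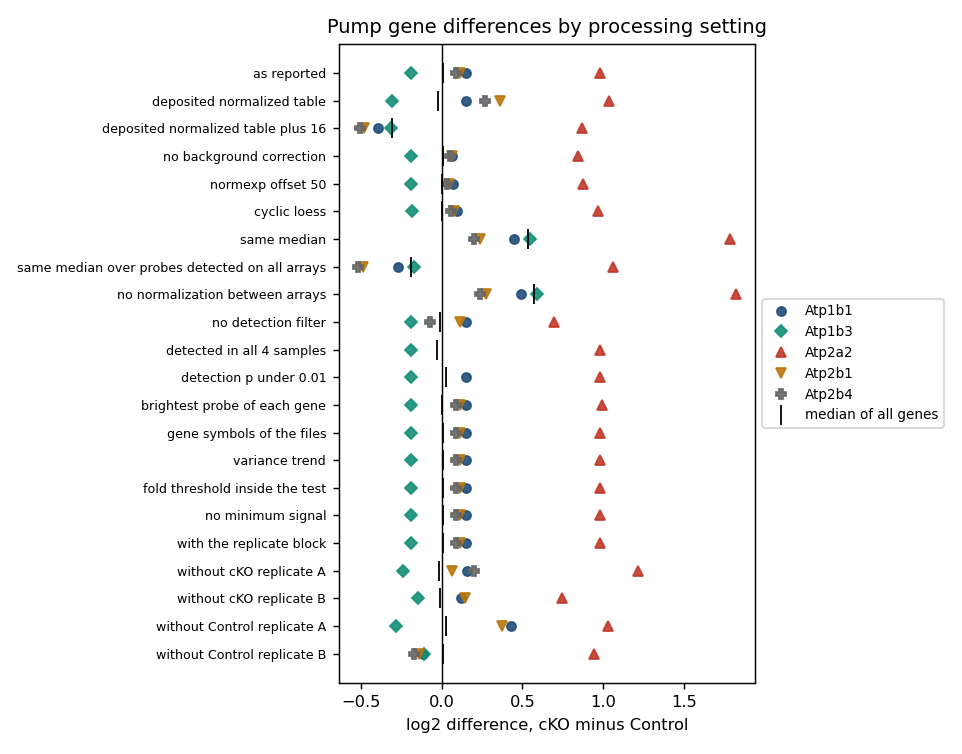
Difference in log2 signal between cKO and Control lenses (horizontal axis) for the tested pump genes (symbols) under each processing setting and with each lens left out (rows), with the median of all genes as a vertical tick. Atp2a2 stays to the right of the median, between 0.70 and 1.25 from it, while Atp1b1, Atp1b3, Atp2b1 and Atp2b4 lie on either side of 0 depending on the row.

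The balance of calls over all genes differed between settings. Of the 1341 genes called, 51.6% were elevated. The share was 97.3% with arrays scaled to the same median, 97.7% with no scaling, 24.8% with scaling to probes detected on all arrays, 11% with 16 added to the deposited normalized values, and 71.4% of 7 calls on the deposited normalized values as they are. The settings that use the deposited values differ from the reported one in table, background correction and offset as well as in scaling. The median difference of all genes was -0.19 with scaling to probes detected on all arrays and -0.31 with 16 added to the deposited values.

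The genes whose pattern over the 4 lenses lay closest to that of 2 pump genes were found by the Euclidean distance between log2 values centred on each gene's own mean. For Atp2a2, the tested pump gene of largest positive difference, they were Lmo2 (distance 0.07), Qdpr (0.08) and Msn (0.09). Lmo2 encodes a transcriptional cofactor of blood and vessel development, Qdpr an enzyme that recycles tetrahydrobiopterin, and Msn moesin, which ties the membrane to actin. For Atp1b3, the only one with a negative difference, they were Cryba2 (0.01), a crystallin of the lens fibers, Armcx1 (0.02), and Banf1 (0.02), a DNA-binding protein of the nuclear envelope. With 4 lenses such nearness is a description of these arrays only.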

How the data were processed

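Unnormalized signal intensity, normalized intensity (rank-invariant scaling, per the file headers, from GSGX 1.9.0), a detection p-value per probe and array, and bead numbers and errors were deposited by the authors. Of 45281 probes, 18 on lines with shifted cells were left out. Genes were named through a RefSeq table (GRCm38.p6). Intensity was background-corrected and quantile normalized with neqc (limma 3.58.1, R 4.3.3, offset 16). Probes were kept if their detection p-value was under 0.05 in 2 or more lenses (16262 probes), and log2 values were averaged by gene. The groups were tested with lmFit and eBayes over all genes. No block was used, because the replicate letters do not pair the lenses (correlation of the A minus B differences -0.01 over 11516 genes). The count model in the study's methods was replaced because the values are intensities. A bound ("at least N-fold") sets the brighter group against the lowest detected signal. In simulations of 11516 genes with 200 of them changed, 70.9% of genes changed by 1 log2 unit were recovered. The simulated noise was independent between arrays and, unlike these arrays, held no shift in brightness with genotype. The share is therefore not an estimate for these lenses. The number of arrays limits the precision. The pump genes, the transport list and the cell type markers were chosen with earlier results of these data known. Some genes of the list are not reported here and were left out of its counts. Its other genes are named where called, and any further list gene was picked with its values in view. Alternatives covered the table, background, scaling, filters, probes, variance model, fold threshold, replicate block and each lens left out. Tables were read with Python 3.11.15.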

Additional observations from a re-analysis of the deposited data

How the results depend on the processing

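With 2 lenses in each group, single lenses decided many calls. Of the pump genes, 1 was called as reported, 0 on the deposited normalized values, without a detection filter or with the fold threshold inside the test, and 2 with no scaling between arrays (Atp1b3 beside Atp2a2). With a lens left out, 0 to 1 pump genes were called. Over all genes 1341 were called as reported, and 7 on the deposited normalized values (3164 at an unadjusted p under 0.05), 3021 with 16 added to them, 718 with no background correction, 789 with an offset of 50, 5417 with arrays scaled to the same median, 2690 to that of probes detected on all arrays, 5788 with no scaling, 207 without a detection filter and 86 with the fold threshold inside the test. With a lens left out, 163 to 1364 were called. In the paired fit with the replicate block, 1685 genes were called, among them Atp2a2, and it changed no call among the 5 tested pump genes and the 8 called list genes.

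Reversed signs were as follows. With 16 added to the deposited values, Atp1b1 was at -0.39, Atp2b1 at -0.48 and Atp2b4 at -0.51. With scaling to probes detected on all arrays they were at -0.27, -0.49 and -0.52. Without a detection filter Atp2b4 was at -0.0723. With the same median Atp1b3 was at 0.55 and Fxyd6 at 0.0203, and with no scaling at 0.59 and 0.0584. With a lens left out, differences ranged from -0.11 to 0.43 for Atp1b1, -0.14 to 0.37 for Atp2b1, -0.17 to 0.20 for Atp2b4 (not tested without cKO B or Control A) and -0.0025 to 0.84 for Slc8a1. The cause was not tested. Atp2a2 was also lost on the deposited values (1.03, adjusted p = 0.102), without a detection filter (0.69, adjusted p = 0.083) and with the fold threshold inside the test (adjusted p = 0.789), in limma, over a range of 2.62e-06 to 0.789 with 4 lenses. Of the transport list, 8 genes were called as reported, 0 on the deposited values, 13 with 16 added to them, 5 with no background correction or an offset of 50, 23 with the same median or no scaling, 14 with scaling to probes detected on all arrays, 1 without a detection filter, 1 with the fold threshold inside the test and 6 with the gene symbols of the files. Signal near background limits Atp1b1, Atp1b2, Atp2a3, Atp2b1, Atp2b2 and Atp2b4.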
